A study of Mus musculus with 10 samples.

Results

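The genes described here are 7 myeloid C-type lectin receptors of the mouse: Clec4e (Mincle), Clec4d (MCL), Clec4n (Dectin-2), Clec5a (MDL-1), Clec7a (Dectin-1), Clec4a2 (DCIR) and Clec12a (MICL). They were taken by name, as the rows of the count table whose Ensembl identifiers carry these symbols in GENCODE M21, and are 7 of 55385 mouse genes. All 7 passed the filter of at least 5 CPM (counts scaled by library size) on average over the libraries, which kept 11274 genes for testing.

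Bulk RNA-seq covered 10 libraries of Tomato+ neutrophils isolated from grafted squamous cell carcinomas (SCC). The hosts of every group were CatchupIVM-red mice, in which a Tomato reporter is tied to the neutrophil gene Ly6g. All samples carry the label C57 in their descriptions, with GFP for the control grafts and Sox2 for the others. The grafts were either parental Sox2low control SCC cells or Sox2Hi SCC cells, and mice with established tumours were left untreated (naive) or were given anti-PDL1 with CD40 agonist (treated). The 4 groups were naive tumours of control grafts (n = 3) and of Sox2Hi grafts (n = 3), and treated tumours of control grafts (n = 2) and of Sox2Hi grafts (n = 2). No host age, dose or time after treatment is used here, and the labels do not say whether replicates came from separate animals, so p-values measure the spread between these libraries. The study's stated question was whether Sox2 in the tumour cells alters the neutrophils' response to interferon, and the receptors below were compared over the same 4 groups.

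C-type lectin receptors are surface proteins with which myeloid cells recognise sugars and lipids of fungi and bacteria, and products of dying cells. Mincle, MCL and Dectin-2 have almost no signalling tail of their own and pair with the adaptor Fcer1g, MDL-1 pairs with Tyrobp (DAP12) and Hcst (DAP10), and Dectin-1 carries its own activating motif; all of these routes can activate the kinase Syk, which in many of them passes the signal to the Card9, Bcl10 and Malt1 complex. DCIR and MICL carry inhibitory motifs that recruit the phosphatases Ptpn6 (SHP-1) and Ptpn11 (SHP-2).

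All 7 genes lie on chromosome 6 (GRCm38, GENCODE M21). Clec4a2 (123106428 to 123143999, plus strand), Clec4n (123229843 to 123247021, plus), Clec4d (123262111 to 123275265, plus) and Clec4e (123281789 to 123289870, minus) form a stretch of 183 kb, in which Clec4d and Clec4e are separated by 6.52 kb. Clec12a (129342691 to 129365303, plus) and Clec7a (129461591 to 129472779, minus) lie 96.3 kb apart, and Clec5a (40574894 to 40585821, minus) lies apart from both clusters. GENCODE M21 lists Clec7a as a polymorphic pseudogene, although the gene encodes a functional receptor in many strains.

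Because the 7 genes moved in the same direction under treatment in control grafts, the 250 bases before their start sites were read from RefSeq (GRCm38.p6). The table matched 6 of the 7 genes, all but Clec4n. Capitals mark matches to the core of the PU.1 motif (GAGGAA, or TTCCTC when read on the other strand) and of the C/EBP motif (TTNNGCAA), which belong to factors of granulocyte and monocyte development. The windows are chr6:123289872-123290121 (minus strand) for Clec4e, chr6:123261857-123262106 (plus) for Clec4d, chr6:40585822-40586055 (minus, without 16 bases that M21 places in an exon) for Clec5a and chr6:129472780-129473029 (minus) for Clec7a, each printed 5′ to 3′.
Clec4e: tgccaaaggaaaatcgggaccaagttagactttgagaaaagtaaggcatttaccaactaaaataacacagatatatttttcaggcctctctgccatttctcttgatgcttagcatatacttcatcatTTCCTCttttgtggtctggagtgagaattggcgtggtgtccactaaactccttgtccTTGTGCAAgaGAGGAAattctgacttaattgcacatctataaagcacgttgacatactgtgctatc
Clec4d: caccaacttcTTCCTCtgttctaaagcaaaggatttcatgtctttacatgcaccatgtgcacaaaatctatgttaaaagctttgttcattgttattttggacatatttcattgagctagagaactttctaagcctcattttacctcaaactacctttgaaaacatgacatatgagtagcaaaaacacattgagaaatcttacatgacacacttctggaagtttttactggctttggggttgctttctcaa
Clec5a: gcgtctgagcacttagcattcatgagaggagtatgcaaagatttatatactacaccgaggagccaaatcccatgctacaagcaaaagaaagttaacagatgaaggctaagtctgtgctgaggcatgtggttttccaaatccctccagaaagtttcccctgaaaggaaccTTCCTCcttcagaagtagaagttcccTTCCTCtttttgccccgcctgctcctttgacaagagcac
Clec7a: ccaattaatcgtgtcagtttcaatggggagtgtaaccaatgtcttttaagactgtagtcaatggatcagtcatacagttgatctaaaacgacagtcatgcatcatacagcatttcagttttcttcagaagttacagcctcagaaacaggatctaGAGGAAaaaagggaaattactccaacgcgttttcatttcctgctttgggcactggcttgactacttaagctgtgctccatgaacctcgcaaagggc
The Clec4e window held a C/EBP match and a PU.1 core 2 bases apart, starting 66 and 56 bases before the start site, and a further PU.1 core at 123 bases. Clec5a had PU.1 cores at 81 and 55 bases, Clec7a at 96 bases and Clec4d at 240 bases. Clec12a, whose window lies wholly within M21 exons and is not printed, had PU.1 cores at 61 and 47 bases and a palindromic C/EBP match at 140 bases, and Clec4a2 had neither. In all, 5 of the 6 genes had a PU.1 core on either strand, against 23.3% of 32851 mouse windows of the same length, and 2 of the 6 had a C/EBP match, against 9.56%. An NF-kB motif (GGG and CC with any 5 bases between; 45.8% of windows) and an interferon response element (GAAA and GAAA with any 2 bases between; 2.98%) were in none of the 6, and the STAT motif TTCNNNGAA (7.02%) was in Clec4a2 only. The searched motifs do not overlap each other in these windows. A match is a description of letters and not of a factor's binding.

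The libraries held 13815734 to 22986193 counts over mouse genes, so counting error was small for every receptor gene, the lowest count being 560 for Clec4a2 in Sox2Hi naive replicate 3. Reads over genes that are silent in these cells differed between groups. By the density over 1466 silent receptor genes, background was estimated at 5.02% to 8.39% (naive) and 1.58% to 1.74% (treated) of counts in control grafts, and at 3.63% to 3.92% (naive) and 4.04% to 4.96% (treated) in Sox2Hi grafts. It could account for at most 5.33% of the Clec12a and 3.40% of the Clec4a2 count in any library, and at most 0.354% for the other 5 genes. Levels and tests therefore used factors from the 11274 expressed genes (expressed-gene scaling). Factors from 29648 genes, lowly expressed ones included (all-gene scaling), moved the fold changes of the 7 genes by a median of 0.57 in the treatment response of control grafts, -0.26 in that of Sox2Hi grafts, 0.38 and -0.45 in the graft difference of naive and treated tumours, and -0.83 in the difference between the responses, all in log2. Where the call or direction of a named gene depends on the scaling, this is said. Ddx3y, a Y-linked gene, was above 500 counts in 6 libraries and not in 4, and every group held both kinds.

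Per kilobase of exon, Clec4n had the highest level of the 7 genes and Clec12a and Clec4a2 the lowest. In control naive libraries the levels in CPM per kb of merged exon were 956 ± 216 (SD, n = 3) for Clec4n, 548 ± 119 for Clec7a, 480 ± 111 for Clec4d, 348 ± 71.9 for Clec4e, 142 ± 36.2 for Clec5a, 17.6 ± 4.32 for Clec4a2 and 9.86 ± 2.86 for Clec12a. Clec4n ranked 1, Clec4e ranked 4 and Clec5a ranked 5 in each of the 10 libraries, while Clec7a and Clec4d exchanged ranks 2 and 3, and Clec4a2 and Clec12a ranks 6 and 7, between libraries. The order of the upper 4 depends on the length used. With the mean length of coding transcripts in place of merged exons, Clec4e ranked 1 or 2 in the group means, above Clec7a and Clec4d, since its merged exons span 4965 bases and its coding transcripts a mean of 1624. Clec5a stayed at rank 5 and Clec4a2 and Clec12a at ranks 6 and 7 with either length.

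**Figure D1:**
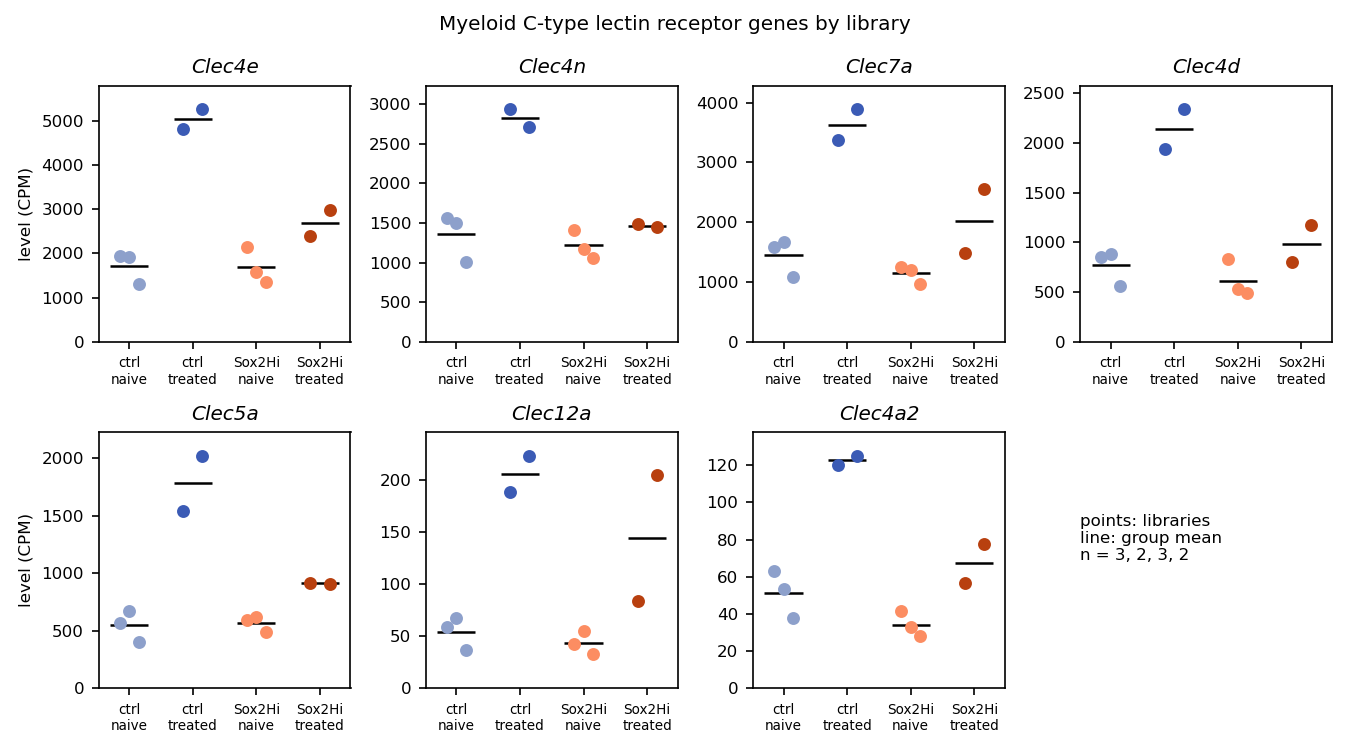
Level of each receptor gene in each library, in CPM with expressed-gene scaling, by group (ctrl, parental Sox2low control graft). Points are libraries and lines are group means (n = 3, 2, 3 and 2). Both control treated libraries lie above all 3 control naive libraries for every gene, while the Sox2Hi treated libraries lie lower, except for 1 Clec12a library at 205 CPM.

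Treatment raised all 7 receptor genes in neutrophils from control grafts, from 2.08-fold for Clec4n to 3.78-fold for Clec12a. Among the genes that signal through Fcer1g, Clec4e, the receptor for mycobacterial cord factor and for a nuclear protein of dead cells, had 1950, 1913 and 1315 CPM in the 3 control naive libraries and 4822 and 5261 CPM in the 2 treated ones. The lowest treated library was 2.47 times the highest naive one. Its log2 fold change was 1.55 ± 0.24 (SE; edgeR adjusted p = 0.000622).

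Clec4d, which forms a complex with Mincle at the cell surface, had 851, 886 and 563 CPM in control naive libraries and 1939 and 2337 CPM in control treated libraries. The groups did not overlap, and the log2 fold change was 1.48 ± 0.28 (edgeR adjusted p = 0.00141). Clec4n, the receptor for fungal mannans, had 1561, 1505 and 1005 CPM in control naive libraries and 2935 and 2708 CPM in control treated libraries. It was the least changed of the 7, with a log2 fold change of 1.06 ± 0.21 (edgeR adjusted p = 0.00191), and again the groups did not overlap.

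Clec5a, which recognises flaviviruses and bacterial products, had 567, 675 and 399 CPM in control naive libraries and 1545 and 2021 CPM in control treated libraries. Both treated libraries were higher than any naive one, with a log2 fold change of 1.71 ± 0.22 (edgeR adjusted p = 0.000274). Clec7a, the beta-glucan receptor, had 1587, 1665 and 1086 CPM in control naive libraries and 3378 and 3890 CPM in control treated libraries. Its log2 fold change was 1.33 ± 0.26 (edgeR adjusted p = 0.00163), and the lowest treated library was 2.03 times the highest naive one.

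The inhibitory receptors rose as well. Clec12a, which binds uric acid crystals, had 58.9, 67.7 and 37.0 CPM in control naive libraries and 189 and 224 CPM in control treated libraries. This was the highest fold of the 7, a log2 fold change of 1.92 ± 0.36 (edgeR adjusted p = 0.00136). Clec4a2 had 62.8, 53.5 and 37.8 CPM in control naive libraries and 120 and 125 CPM in control treated libraries, without overlap. Its log2 fold change was 1.26 ± 0.23 (edgeR adjusted p = 0.00135). Of the 31-base words in Clec4a2 transcripts, 10.9% also occur in other genes, among them Clec4a4 and Clec4b1, and the gene Gm44132 overlaps it on the same strand, so its counts are less certain than those of the other 6, for which 1.97% or less were shared.

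Against the background, 24.1% of the 11274 tested genes were called higher in this comparison under an adjusted p of 0.05 and 33.1% lower, 57.3% in all; under all-gene scaling 18.7% were called higher and 15.3% lower. Among the 1473 genes averaging 100 CPM or more, 53.7% were called higher. Clec4a2 and Clec12a average less and are outside this class, here and in the comparisons below. The median log2 fold change was 1.48 over the 7 receptor genes, -0.18 over all tested genes and 0.52 over the genes of at least 100 CPM. The treated and naive libraries did not overlap for any of the 7, with the treated higher, as was so for 29.6% of tested genes. The call held for all 7 genes under each of the 23 alternatives run, with the fold changes between 0.51 and 2.62 in log2.

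In Sox2Hi grafts the same treatment raised 4 of the 7, Clec12a, Clec4a2, Clec7a and Clec5a. Of all tested genes 15% were called higher (21.6% in either direction), and of those of at least 100 CPM 23.4%. Clec7a and Clec5a belong to that last class, and Clec12a and Clec4a2 do not. Clec12a had 42.9, 54.9 and 32.9 CPM in the 3 Sox2Hi naive libraries and 84.0 and 205 CPM in the 2 treated ones. The treated libraries stood far apart from each other but both above the naive ones, and the log2 fold change was 1.73 ± 0.36 (edgeR adjusted p = 0.0104). Clec4a2 had 41.7, 32.9 and 28.3 CPM naive and 56.9 and 77.7 CPM treated, a log2 fold change of 0.97 ± 0.23 (edgeR adjusted p = 0.0185).

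Clec7a had 1258, 1207 and 973 CPM in Sox2Hi naive libraries and 1490 and 2557 CPM in Sox2Hi treated libraries. The replicates of the treated group again differed, with replicate 2 the higher, and the log2 fold change was 0.82 ± 0.26 (edgeR adjusted p = 0.0444). Clec5a had 592, 618 and 488 CPM naive and 917 and 905 CPM treated, a log2 fold change of 0.69 ± 0.22 close to the threshold (edgeR adjusted p = 0.0484). Here the treated replicates lay close together.

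The 3 receptor genes that pair with Fcer1g did not pass the test in Sox2Hi grafts. Clec4e had 2143, 1573 and 1346 CPM naive and 2402 and 2991 CPM treated, a log2 difference of 0.68 ± 0.24 (edgeR adjusted p = 0.0672), with no overlap. Clec4d had 830, 531 and 486 CPM naive and 801 and 1172 CPM treated, which overlap, a log2 difference of 0.68 ± 0.28 (edgeR adjusted p = 0.0968). Clec4n had 1416, 1178 and 1062 CPM naive and 1481 and 1448 CPM treated, a log2 difference of 0.27 ± 0.21 (edgeR adjusted p = 0.366). The highest naive and the lowest treated library of Clec4n nearly met.

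The median log2 difference of the 7 in Sox2Hi grafts was 0.69, against 0.09 over all tested genes, and 6 of the 7 had treated libraries above the naive ones without overlap, as had 37% of tested genes. This count of 4 rests on single libraries. Without Sox2Hi treated replicate 2, which left that group with 1 library assumed to vary like the others, none was called and Clec12a stood at 0.89 (edgeR adjusted p = 0.180), with 1.56% of all tested genes called higher; without Sox2Hi treated replicate 1 Clec12a stood at 2.24 and 3 genes were called, without Sox2Hi naive replicate 3 only Clec12a was called, and without any one of control naive replicate 1, control treated replicate 1, control treated replicate 2 or Sox2Hi naive replicate 2 only Clec4a2 and Clec12a were called. In the other fits named here 4.83% to 11.9% of all tested genes were called higher. Under all-gene scaling Clec12a alone was called, at 1.47 (edgeR adjusted p = 0.0380, with 1.79% of genes called higher), and Clec4n turned to -0.00051.

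**Figure D2:**
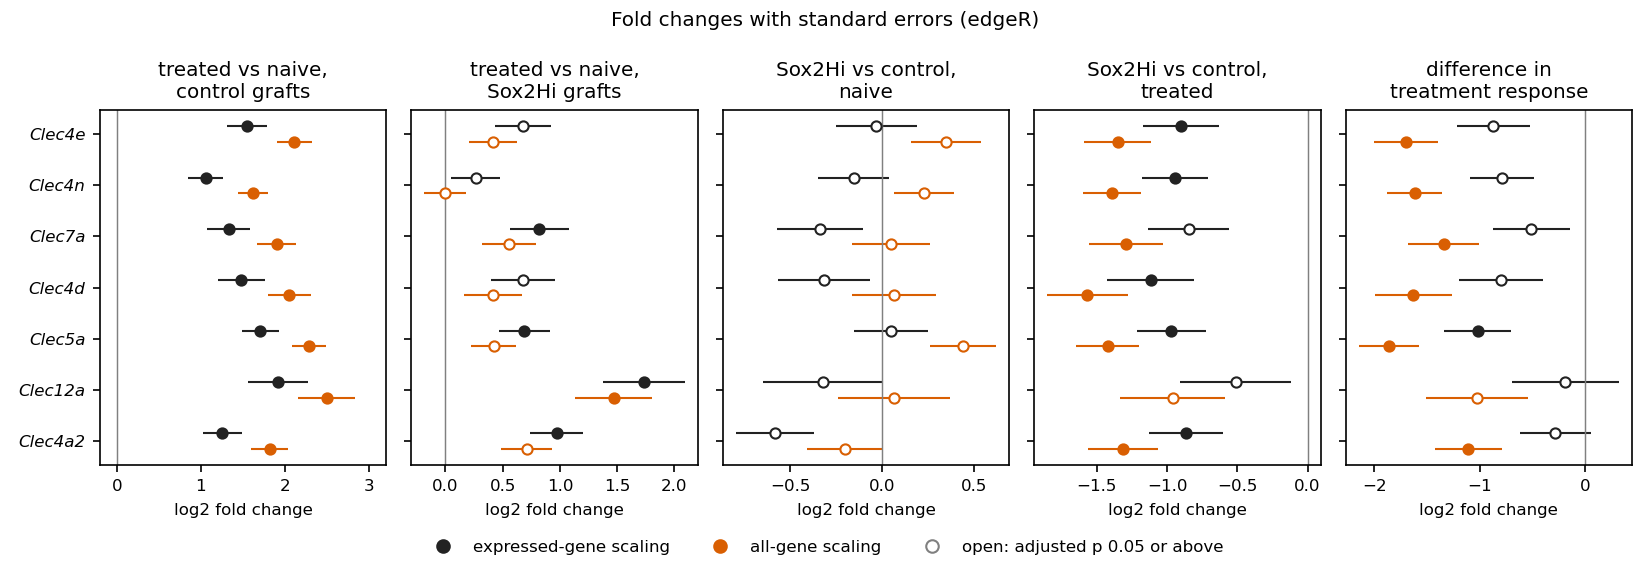
Log2 fold change of each receptor gene with its standard error (bars) in the 5 comparisons, from edgeR with expressed-gene scaling (black) and all-gene scaling (orange); filled points have an adjusted p under 0.05. All 7 genes are filled in the first panel under both scalings, none in the third, and the scaling moves the points of the other panels past or short of the threshold.

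Without treatment, no receptor gene differed between Sox2Hi and control grafts in the edgeR test, against 14% of tested genes called in either direction; 1 of the 7, Clec4a2, had an unadjusted p under 0.05. The log2 differences ran from -0.58 for Clec4a2 to 0.05 for Clec5a, with a median of -0.32, against -0.05 over all tested genes, and the libraries of the grafts overlapped for all 7, whereas 10.7% of tested genes were higher and 21.8% lower in Sox2Hi grafts without overlap. With expressed-gene scaling, Clec4a2, Clec4d, Clec7a and Clec12a were lower in Sox2Hi grafts in each of the 3 naive pairs of the same replicate number. The share of all tested genes lower in every pair was not counted, so this cannot be set against the background. Of these genes, Clec4d, Clec7a and Clec12a had group differences that changed sign under all-gene scaling, as given below. For Clec4e the group means were 1726 ± 357 CPM (SD, n = 3) in control and 1688 ± 411 CPM (n = 3) in Sox2Hi grafts. All-gene scaling changed the sign of 5 of the 7 differences but called none, with 1.87% of genes called; the values were 0.063 for Clec4d, 0.35 for Clec4e, 0.23 for Clec4n, 0.049 for Clec7a and 0.066 for Clec12a.

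Clec4a2 was the gene nearest to a call in naive tumours, with 51.4 ± 12.7 CPM (SD, n = 3) in control and 34.3 ± 6.81 CPM (n = 3) in Sox2Hi grafts (log2 difference -0.58 ± 0.21, edgeR adjusted p = 0.100). Naive libraries with the same replicate number deviated together, and with that number as a block on the 6 naive libraries the difference was -0.50 ± 0.12 and was called (edgeR adjusted p = 0.0184). It was also called with limma-voom, at -0.81, with the block over all 10 libraries, at -0.57, and without control naive replicate 3, at -0.76. In these 4 fits 14.3%, 24.1%, 13.9% and 14.2% of all tested genes were called lower. Under all-gene scaling the difference was -0.20 and was not called (edgeR adjusted p = 0.519). A ratio within each library needs no scaling. There were 32.2, 28.0 and 28.7 counts of Clec4a2 per 1000 of Clec4e in the control naive libraries and 19.5 to 21.04 in the Sox2Hi naive ones, which did not overlap. In treated tumours the ratio was 23.8 and 24.9 in control and 23.7 and 26.0 in Sox2Hi grafts, which overlapped.

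In treated tumours 5 of the 7 receptor genes were lower in Sox2Hi than in control grafts, against 5.87% of tested genes called lower and 19.7% of those of at least 100 CPM. From the levels given above, Clec4d had a mean of 2138 ± 281 CPM (SD, n = 2) in control treated and 986 ± 262 CPM (n = 2) in Sox2Hi treated libraries, a log2 fold change of -1.12 ± 0.31 (edgeR adjusted p = 0.0304). Clec5a had 1783 ± 337 and 911 ± 8.07 CPM, a log2 fold change of -0.97 ± 0.25 (edgeR adjusted p = 0.0226). Clec4n had 2821 ± 161 and 1465 ± 23.6 CPM, a log2 fold change of -0.95 ± 0.24 (edgeR adjusted p = 0.0207). The 2 treated libraries of each graft lay close together for Clec4n and did not overlap with those of the other graft.

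Clec4e had 5042 ± 310 CPM (SD, n = 2) in control treated and 2696 ± 417 CPM (n = 2) in Sox2Hi treated libraries, a log2 fold change of -0.90 ± 0.27 (edgeR adjusted p = 0.0391). Clec4a2 had 123 ± 3.49 and 67.3 ± 14.7 CPM, a log2 fold change of -0.87 ± 0.26 (edgeR adjusted p = 0.0395). Clec7a, at 3634 ± 362 and 2024 ± 755 CPM, just missed the threshold with -0.84 ± 0.29 (edgeR adjusted p = 0.0598) and was called under all-gene scaling, at -1.29 (edgeR adjusted p = 0.0121). Clec12a, at 206 ± 24.6 and 145 ± 85.8 CPM, overlapped between the grafts and had a log2 difference of -0.51 ± 0.39 (edgeR adjusted p = 0.381).

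The median log2 difference of the 7 in treated tumours was -0.90, against 0.04 over all tested genes and -0.37 over those of at least 100 CPM, and 6 of the 7 did not overlap with Sox2Hi lower, as did 26.3% of tested genes. The direction was the same for all 7 genes in each of the 23 alternatives, but the number called ranged from 0 to 6; it was 6 under all-gene scaling, where 9.57% of genes were called lower. None was called without control treated replicate 2 or without Sox2Hi treated replicate 1, only Clec5a without control treated replicate 1, and 3 without Sox2Hi naive replicate 2 or without Sox2Hi treated replicate 2. In these 5 fits 1.63%, 0.383%, 4.15%, 3.76% and 4.84% of all tested genes were called lower. With single libraries left out the log2 difference ran from -1.14 to -0.94 for Clec4n and from -1.26 to -0.90 for Clec5a.

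**Figure D3:**
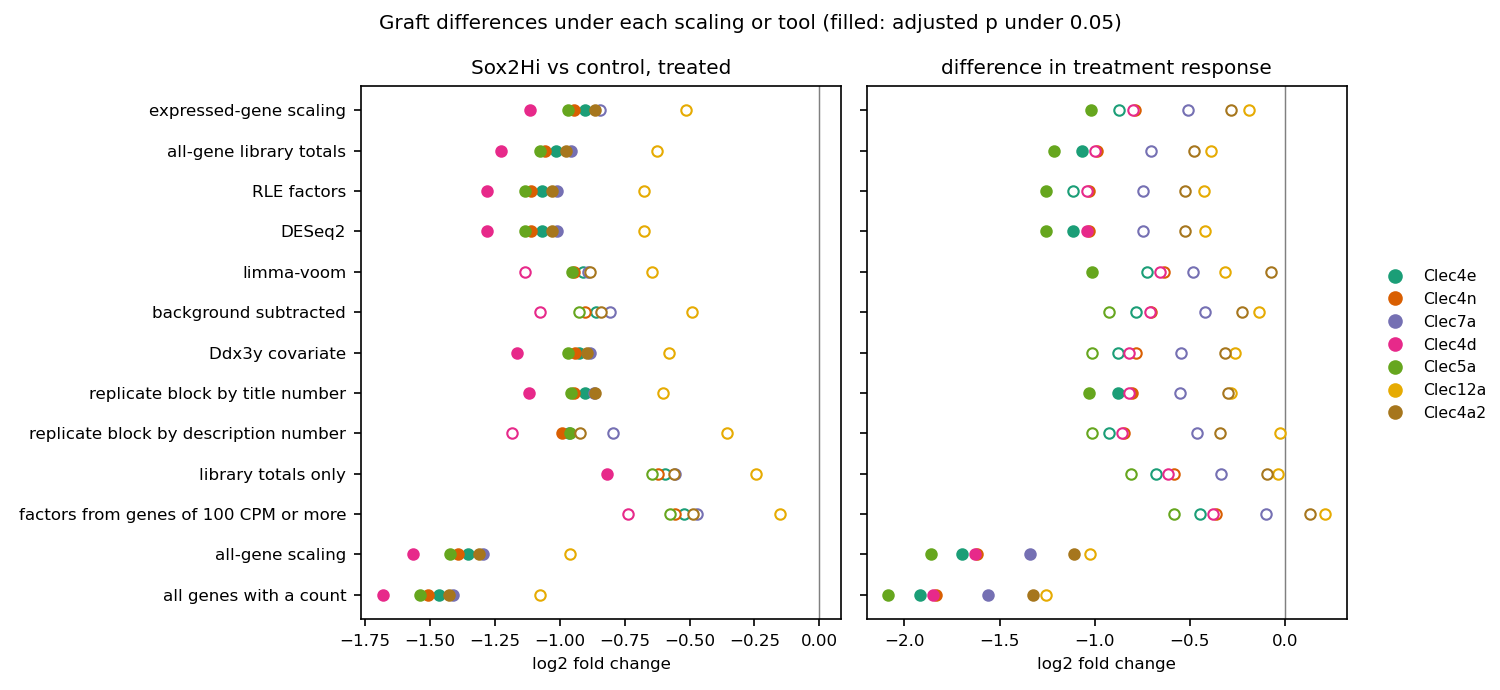
Log2 difference of each receptor gene between Sox2Hi and control grafts in treated tumours (left) and between the treatment responses of the grafts (right), under each scaling, tool or covariate; filled points have an adjusted p under 0.05. The left points lie below 0 in every row shown, while the number filled runs from 0 to 6 in both panels.

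The treatment response itself was tested for a difference between grafts with the interaction term, which shares its libraries with the comparisons above. Clec5a had a smaller response in Sox2Hi than in control grafts, a log2 difference of -1.02 ± 0.32 (edgeR adjusted p = 0.0451), against 2.84% of tested genes called lower and 7.88% of those of at least 100 CPM. The other 6 were not called under expressed-gene scaling: Clec4e stood at -0.87 ± 0.35 (edgeR adjusted p = 0.108), Clec4d at -0.80 ± 0.40 (0.194), Clec4n at -0.79 ± 0.30 (0.0945), Clec7a at -0.51 ± 0.37 (0.381), Clec4a2 at -0.28 ± 0.33 (0.612) and Clec12a at -0.19 ± 0.51 (0.839). The Clec5a call was kept without control naive replicate 2, control treated replicate 1 or Sox2Hi naive replicate 3 and was lost without any one of the other 7 libraries, with edgeR adjusted p-values up to 0.127 and log2 differences from -1.40 to -0.83.

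The number of interaction terms called depended on the scaling. Under all-gene scaling 6 of the 7 were lower, all but Clec12a, with values from -1.86 for Clec5a to -1.11 for Clec4a2 (edgeR adjusted p from 0.00465 to 0.0267). In that fit 16.2% of 29648 genes were called lower and 11.3% higher; the expressed-gene fit had 16.9% higher. With factors from the genes of at least 100 CPM alone, a setting added after the data were seen, none of the 7 was called, with 0.31% of tested genes called lower and 25.5% higher, and Clec12a and Clec4a2 turned to 0.21 and 0.13.

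Whether treated and naive libraries differed in the receptor count relative to neutrophil or macrophage markers depended on 1 leading marker in each list. The 7 genes together had 34.4, 28.8 and 30.6 counts per 100 counts of 20 neutrophil marker genes in control naive libraries and 31.6 and 36.8 in control treated libraries. The Sox2Hi naive libraries had 32.4, 30.1 and 32.4, and the Sox2Hi treated libraries 29.4 and 36.4. All 4 groups overlapped. In this sum 1 gene, Il1r2, a decoy receptor of interleukin 1, made up 12019 of 19097 CPM in control naive libraries, and it was not called under treatment in control grafts (log2 difference 0.54, edgeR adjusted p = 0.0972), though it was under all-gene scaling (1.12). Per 100 counts of the other 19 markers, a sum taken after the data were seen, the 7 genes had 81.4 to 88.4 counts in naive and 46.8 and 65.3 in treated control grafts, and 76.6 to 85.7 in naive and 54.8 and 65.7 in treated Sox2Hi grafts. Without Il1r2 the treated libraries were thus lower than the naive ones in both grafts, with no overlap. Per 100 counts of 16 macrophage and monocyte markers the 7 genes had 443 to 509 counts in naive and 578 and 880 in treated control grafts, without overlap. In Sox2Hi grafts they had 307 to 378 counts in naive libraries, below all control naive ones, and 382 and 559 in treated libraries, which did not overlap but nearly met. Apoe, a lipid carrier of macrophages, made up 559 of 1277 CPM of this sum in control naive libraries. Per 100 counts of the other 15 markers the ratios were 790 to 865 in naive and 721 and 1027 in treated control grafts. In Sox2Hi grafts they were 687 to 766 in naive and 637 and 808 in treated libraries. Naive and treated libraries thus overlapped in both grafts, while the Sox2Hi naive libraries again lay below all control naive ones. As a share of all mouse counts the 7 genes made up on average 0.617% (naive) and 1.15% (treated) in control grafts, and 0.604% (naive) and 0.738% (treated) in Sox2Hi grafts.

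The neutrophil markers themselves had a summed level of 14502 to 23513 CPM (naive) and 44994 to 47172 CPM (treated) in control grafts, and of 13607 to 19526 CPM (naive) and 24584 to 25677 CPM (treated) in Sox2Hi grafts. Of the 20 markers, 18 rose under treatment in control and 13 in Sox2Hi grafts, and 8 were lower in Sox2Hi than control treated libraries. The shares of all tested genes were 24.1%, 15% and 5.87%. Under all-gene scaling the marker counts were 20, 10 and 13, and the shares 18.7%, 1.79% and 9.57%. None fell under treatment. S100a8, a calprotectin subunit, had 1676 ± 397 (SD; naive) and 8878 ± 1893 CPM (treated) in control grafts and 1280 ± 444 (naive) and 3708 ± 178 CPM (treated) in Sox2Hi grafts, while Ly6g, to which the reporter is tied, was low throughout, with group means of 2.40 to 14.6 CPM. In bulk RNA, more neutrophils in the sorted cells and more of these transcripts in each neutrophil cannot be told apart.

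Macrophages, monocytes and dendritic cells also express most of these receptors. The 16 macrophage and monocyte markers summed to 1001 to 1525 CPM (naive) and 1883 to 2583 CPM (treated) in control grafts. In Sox2Hi grafts they summed to 1373 to 1914 CPM (naive) and 1295 to 2451 CPM (treated). Of 14 tested, 5 rose under treatment in control and 4 in Sox2Hi grafts, or 8 and 1 under all-gene scaling. The shares of all tested genes called higher were 24.1% and 15%, or 18.7% and 1.79% under all-gene scaling. The monocyte genes Ccr2 and Ly6c2 rose by 2.01 and 4.12 in log2 in control grafts and by 1.77 and 3.04 in Sox2Hi grafts, where Ccr2 was not called under all-gene scaling (edgeR adjusted p = 0.0839). The 12 dendritic cell markers summed to 56.1 to 106 CPM over all libraries, with overlapping groups, and the 11 T and NK cell markers to 40.1 to 133 CPM in naive and 132 to 449 CPM in treated libraries. No marker of these lists was at 0 in every library of a group. The part of these cells in the receptor levels was not tested.

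**Figure D4:**
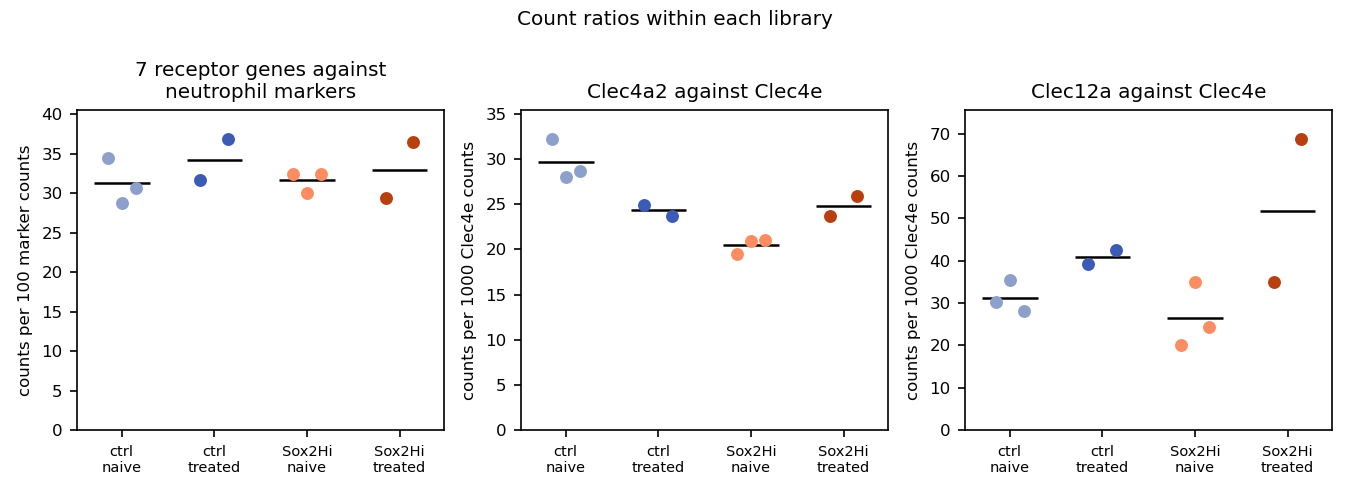
Count ratios within each library, which library scaling does not move: the 7 receptor genes per 100 counts of 20 neutrophil markers, and Clec4a2 and Clec12a per 1000 counts of Clec4e. Points are libraries and lines group means; the groups overlap between 28.8 and 36.8 in the left panel, where Il1r2 is among the markers, and Clec4a2 is lower in the 3 Sox2Hi naive libraries than in the 3 control naive ones.

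Ratios between receptor genes, given here without a test, differed between some of the groups. In control grafts Clec12a had 28.2 to 35.4 counts per 1000 of Clec4e in naive and 39.1 and 42.5 in treated libraries, which did not overlap. In Sox2Hi grafts the ratio was 20.01 to 34.9 in naive and 35.0 and 68.6 in treated libraries, which did not overlap but nearly met. The share of Clec4n in the summed level per kb of the 7 genes was 37.4% to 39.2% in naive and 29.3% and 34.4% in treated control grafts. In Sox2Hi grafts it was 38.3% to 40.8% in naive and 28.1% and 36.4% in treated libraries.

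Levels of the 7 genes ran in parallel over the 10 libraries. Pearson correlations of log2(CPM + 1) between pairs of them ran from 0.813 for Clec4n with Clec12a to 0.977 for Clec4d with Clec4e. Among 7117 other genes averaging 10 CPM or more, the nearest patterns were those of Slpi (0.996), Igsf6 (0.992) and Glipr1 (0.992) for Clec4e, Cd53 (0.995) and Trem1 (0.988) for Clec4d, and Ptpn12 (0.987), Fam111a (0.986) and St3gal6 (0.977) for Clec4n. Clec5a lay nearest to Eapp (0.991), Tsga10 (0.990) and Nktr (0.987), and Clec7a to Evi2a (0.989), Tmem128 (0.987) and Plbd1 (0.986). For the inhibitory receptors they were Pet100 (0.987), Ifitm2 (0.986) and Fcer1g (0.983) for Clec4a2, and Ms4a6b (0.993), Ms4a4c (0.989) and Cd48 (0.988) for Clec12a. These values describe 10 libraries that share groups, scaling and the difference in background, and carry no test.

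The signalling partners rose with the receptors in control grafts. Of 19 genes listed for adaptors and kinases 17 were tested, and 15 rose and 1 fell under treatment in control grafts; in Sox2Hi grafts 6 rose. Of all tested genes 24.1% were called higher in control and 15% in Sox2Hi grafts, and of those of at least 100 CPM 53.7% and 23.4%. Under all-gene scaling 15 rose and none fell in control grafts and 1 rose in Sox2Hi grafts, against 18.7% and 1.79% of genes called higher. The Sox2Hi rises of Fcer1g, Tyrobp, Hcst and Lyn given below were not called under that scaling. They stood at 0.60, 0.57, 0.72 and 0.62 (edgeR adjusted p from 0.0710 to 0.120). The median log2 fold changes of the 17 were 1.12 and 0.50. Fcer1g, the adaptor of Mincle, MCL and Dectin-2, had 1493 ± 312 (SD; naive) and 4144 ± 92.9 CPM (treated) in control grafts and 1209 ± 252 (naive) and 2194 ± 468 CPM (treated) in Sox2Hi grafts. It rose by 1.47 in control (edgeR adjusted p = 0.000703) and by 0.86 in Sox2Hi grafts, and was lower in Sox2Hi than control treated libraries by a log2 fold change of -0.92 (edgeR adjusted p = 0.0346).

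Tyrobp, the adaptor of MDL-1, had 561 ± 115 and 1428 ± 87.8 CPM in naive and treated control grafts and 504 ± 111 and 899.6 ± 122 CPM in naive and treated Sox2Hi grafts, and rose by 1.35 and 0.84 in log2. Hcst, its partner adaptor, rose by 1.63 and 0.99 in log2 and was lower in Sox2Hi treated than control treated libraries (log2 fold change -0.84, edgeR adjusted p = 0.0436). The kinase Syk rose by 1.05 in control grafts and stood at 0.50 in Sox2Hi grafts (edgeR adjusted p = 0.0887).

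Of the Src family kinases, which phosphorylate these receptors, Fgr rose by 1.64 in control grafts and Lyn by 0.89 in Sox2Hi grafts. Nfatc2, a calcium-dependent transcription factor, fell by 0.94 in control grafts from a low level of 7.004 ± 0.937 CPM, and its interaction was 1.37 (edgeR adjusted p = 0.00526). Neither was called under all-gene scaling, where they stood at -0.39 and 0.54 (edgeR adjusted p = 0.139 and 0.147).

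Below Syk, Bcl10, Malt1 and Plcg2 rose by 0.73, 0.86 and 0.60 in log2 in control grafts and stood at 0.21, 0.48 and 0.32 in Sox2Hi grafts, uncalled, with Bcl10 at -0.06 under all-gene scaling. Card9, the adaptor that joins Syk to Bcl10 and Malt1, was under the 5 CPM filter with group means of 1.55 to 2.76 CPM, and was not tested. Of the 5 inhibitory phosphatase genes 3 rose in control grafts, Ptpn6 by 1.47, Dusp1 by 0.97 and Inpp5d by 0.69, against 24.1% of tested genes. None was called in any other comparison. Under all-gene scaling 4 of the 5 rose in control grafts, against 18.7% of genes. In that fit 1 was lower in Sox2Hi than control treated libraries and 2 were lower in the interaction, against 9.57% and 16.2% of genes. Ptpn11 stood at -0.26 in control grafts (edgeR adjusted p = 0.344) and at 0.27 under all-gene scaling. Under all-gene scaling the interaction was called lower for 15 of the 17 adaptor and kinase genes and for 16.2% of all genes, against 1 of the 17 and 2.84% with expressed-gene scaling.

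**Figure D5:**
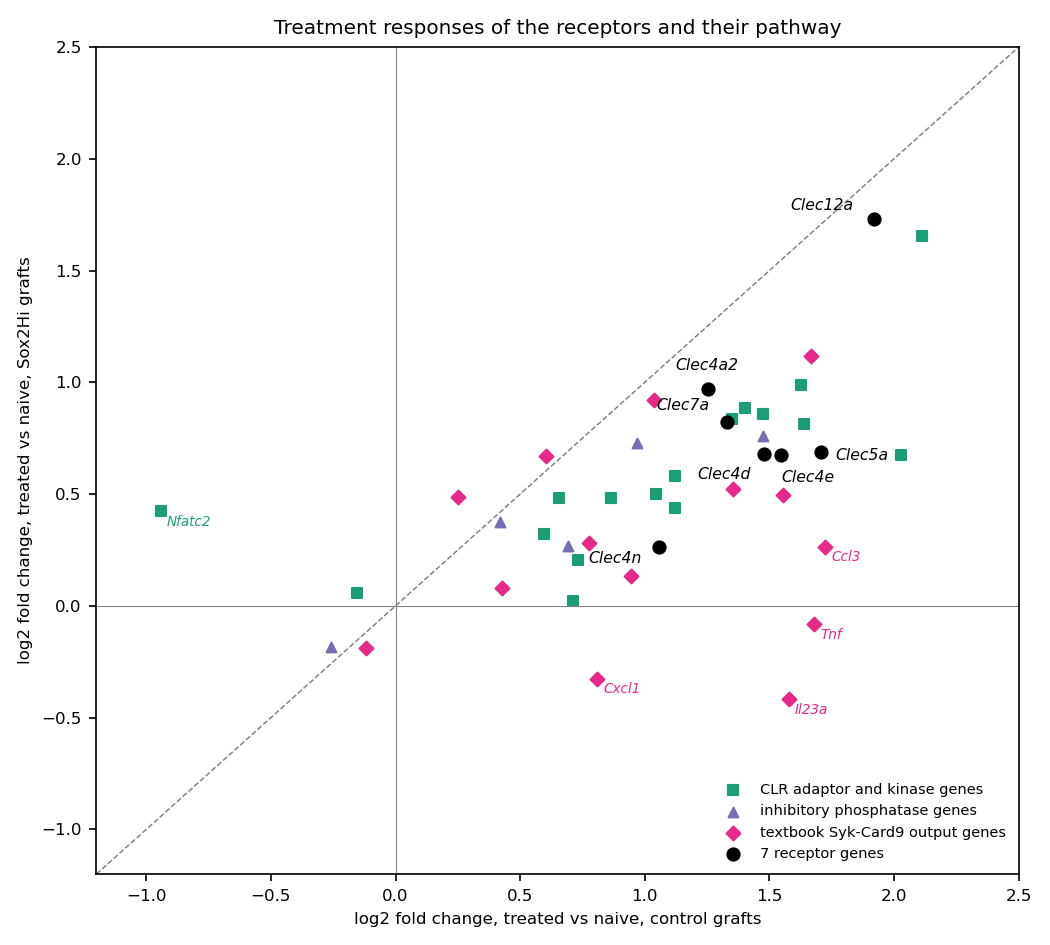
Log2 fold change under treatment in control grafts (x axis) against that in Sox2Hi grafts (y axis) with expressed-gene scaling, for the 7 receptor genes (black), adaptor and kinase genes (green squares), inhibitory phosphatase genes (purple triangles) and textbook output genes (pink diamonds). The dashed line marks equal responses; all 7 receptors lie below it, with Clec12a nearest to it, and Tnf, Il23a and Cxcl1 lie above 0 on the x axis and below 0 on the y axis.

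Most of the listed genes that Syk and Card9 signalling is known to induce, which are cytokine and chemokine genes and Ptgs2, Nlrp3, Egr2 and Egr3, rose under treatment in control grafts. Of 14 tested, 9 rose in control grafts and 1, Il1b, in Sox2Hi grafts (log2 fold change 0.92, edgeR adjusted p = 0.0354, and 0.133 under all-gene scaling); 5 were lower in Sox2Hi than control treated libraries and 3 had a smaller response by the interaction. The shares of all tested genes called in these directions were 24.1%, 15%, 5.87% and 2.84%. Under all-gene scaling the counts were 13, 0, 7 and 9, and the shares 18.7%, 1.79%, 9.57% and 16.2%. Tnf had 64.8 ± 14.8 (SD; naive) and 208 ± 31.3 CPM (treated) in control grafts and 77.2 ± 27.8 (naive) and 73.0 ± 9.42 CPM (treated) in Sox2Hi grafts. Its interaction was -1.76 (edgeR adjusted p = 0.0102).

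Il23a, a subunit of interleukin 23, had 73.9 ± 12.4 (naive) and 221 ± 67.9 CPM (treated) in control grafts and 112 ± 27.3 (naive) and 84.0 ± 0.270 CPM (treated) in Sox2Hi grafts, with an interaction of -2.00 (edgeR adjusted p = 0.00203). Cxcl1, a neutrophil attractant, had an interaction of -1.14 (edgeR adjusted p = 0.0181). The chemokine genes Ccl3 and Ccl4 were lower in Sox2Hi than control treated libraries by log2 fold changes of -1.57 and -1.58 (edgeR adjusted p = 0.0183 and 0.0239). These genes answer to many receptors, and the part of the C-type lectins in their levels was not tested.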

How the data were processed

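RNA-seq of 10 neutrophil libraries was used as 1 table of estimated counts per gene, deposited by the authors; the submitters' processing notes name kallisto 0.44.0 and the build mm10. The deposited counts are whole numbers, and the values with more than 6 digits keep only 6, so they may be rounded; kallisto's role, the annotation and the use of strand are not given in the sources used here. RNA was prepared with a low-input kit, per the labels' protocols. The 96 entries that are not mouse genes, at most 0.00277% of a library, were left out. Symbols came from GENCODE M21 (GRCm38).

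Fits used edgeR 4.0.16 (R 4.3.3): quasi-likelihood tests in 1 model of the 4 groups, library totals and TMM factors over genes averaging 5 CPM or more, Benjamini-Hochberg adjustment over 11274 genes, called under 0.05. The common biological coefficient of variation was 0.212. Alternatives were all-gene scaling, other factors, no filter, DESeq2 1.42.0, limma-voom (limma 3.58.1), background subtraction, Ddx3y, replicate blocks, the compared groups alone and each library left out; 3 of them, and marker sums without their leading gene, were added after the data were seen. In the design file the counts were called raw; they were treated as estimated counts and are whole already. The fit was tested on simulated data.

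Naive libraries with the same title number deviated together across genes (r = 0.273, 0.325 and 0.474), though the labels do not state a pairing. Control treated libraries stood at 0.165, 0.153, 0.216 and 0.246 with naive libraries of the same number. Sox2Hi treated libraries ran from -0.28 to 0.085 with them, and treated pairs were at -0.095. The 4 libraries without Ddx3y also deviated together across groups (0.095 to 0.280), and naive replicate 1 of both grafts is among them. Whether the title number pairs libraries apart from Ddx3y was not tested. No libraries of a group agreed within sampling noise (smallest chi-square per degree of freedom 12.5).

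The 7 receptor genes and the lists were chosen with earlier results of these data known. Named were the 7 genes, 10 adaptors, kinases and phosphatases chosen by role, from each list and comparison up to 3 called genes with the largest rise and fall, and 3 nearest patterns per receptor gene; some genes that these rules name are not reported here. The lists of keratinocyte, fibroblast and endothelial, erythroid, B and plasma cell, and mast cell and basophil markers summed to 1069 to 4215, 103 to 766, 25.4 to 1605, 27.8 to 718 and 9.18 to 249 CPM over the libraries.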

Additional observations from a re-analysis of the deposited data

Results flagged for a closer look

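Clec5a differed between the grafts in its response to treatment by the interaction term, with a log2 difference of -1.02 ± 0.32 in Sox2Hi against control grafts (edgeR adjusted p = 0.0451). The response was 1.71 in control and 0.69 in Sox2Hi grafts, and 2.84% of all tested genes were called lower in this comparison. The Clec5a response was smaller in Sox2Hi grafts under each of the 22 alternatives run, but was not called in all of them. The edgeR, DESeq2 or limma adjusted p-values ran from 0.00299 to 0.2003. Clec4d, Clec4e, Clec4n and Clec7a also had a smaller response in Sox2Hi grafts under all 22. No group had the 4 or more libraries that a check for a single outlying library needs.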

How the results depend on the processing

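Calls in control grafts kept all 7 genes under each of the 23 alternatives, in which 10.3% to 29.7% of all tested genes were called higher. In Sox2Hi grafts the 4 genes called became 1 with all-gene scaling and with all genes with a count, 2 with RLE factors, library totals only, background subtracted, Ddx3y covariate, replicate block by description number, all-gene library totals and factors from genes of 100 CPM or more, and 0 to 5 with single libraries left out. Of all tested genes 15% were called higher there in the reported fit, 1.79% with all-gene scaling, 0.62% with all genes with a count, 9.27% with RLE factors, 5.86% with library totals only and 9.65% to 18.1% with the others named. In naive tumours the 0 became 1 (Clec4a2) with limma-voom, with the replicate block by title number and with that block on naive libraries alone, where 24.1%, 13.9% and 14.3% of all tested genes were called lower, and 0 to 1 with single libraries left out. In treated tumours the 5 became 1 with library totals only, 2 with limma-voom and with the replicate block by description number, 0 with background subtracted, groups compared alone and factors from genes of 100 CPM or more, and 0 to 6 with single libraries left out; it was 6 with all-gene scaling, all-gene library totals, all genes with a count, RLE factors, DESeq2, the Ddx3y covariate and the replicate block by title number. The share of all tested genes called lower was 5.87% in the reported fit, 1.58%, 3.89%, 3.75%, 3.02%, 1.64% and 1.14% in the 6 fits with fewer receptor genes, in the order given, and 5.03% to 16.2% in those with 6. The interaction's 1 became 6 with all-gene scaling and with all genes with a count, 4 with DESeq2, 3 with the replicate block by title number and all-gene library totals, 2 with RLE factors, 0 with library totals only, background subtracted, Ddx3y covariate, replicate block by description number and factors from genes of 100 CPM or more, and 0 to 1 with single libraries left out. There the share of all tested genes called lower was 2.84% in the reported fit, 16.2% with all-gene scaling, 9.59% with all genes with a count, 15.1% with DESeq2, 5.39% with the block by title number, 9.11% with all-gene library totals, 10.9% with RLE factors, and 0.31% to 2.54% in the 5 fits with 0. The cause was not tested.

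Signs changed as follows. Clec4n in treated Sox2Hi grafts became -0.00051 (all-gene scaling), -0.070 (library totals only) and -0.10 (all genes with a count). In naive tumours all-gene scaling gave 0.063, 0.35, 0.23, 0.049 and 0.066 and all genes with a count 0.17, 0.45, 0.33, 0.15 and 0.18 for Clec4d, Clec4e, Clec4n, Clec7a and Clec12a. Clec4e there became 0.045 (RLE factors and DESeq2), 0.082 (library totals only), 0.054 (all-gene library totals), 0.031 (groups alone), 0.029 (the block on naive libraries alone), and ran from -0.24 to 0.12 with single libraries left out; Clec5a became -0.00019 (background subtracted) and ran from -0.14 to 0.30. For the interaction, factors from genes of 100 CPM or more gave 0.13 for Clec4a2 and 0.21 for Clec12a, and Clec12a ran from -1.16 to 0.32 with single libraries left out.

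Groups of 2 libraries limit the precision, and leaving out a treated library leaves a group of 1, assumed to vary like the others. In simulated counts with the same libraries, 100 of 11274 genes were changed 2-fold and 100 were changed 4-fold. The treatment test in control grafts recovered 30% of these 2-fold changes and 99% of these 4-fold changes. In the data 57.3% of tested genes were called in this comparison, and recovery with that many changed genes was not tested. The replicate block by title number called 7, 3, 1, 6 and 3 genes in the 5 comparisons. In that fit 24.1% and 12.0% of all tested genes were called higher in the treatment responses of control and Sox2Hi grafts. In the graft difference of naive and of treated tumours and in the interaction 13.9%, 9.83% and 5.39% were called lower. The treated libraries carry other numbers in their descriptions.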

Other observations

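Other C-type lectin receptor genes moved in both directions. Of 31 listed 16 were tested. Under treatment 8 rose and 4 fell in control grafts, and 6 rose and 1 fell in Sox2Hi grafts, against 57.3% and 21.6% of tested genes called. Under all-gene scaling 11 rose and 3 fell in control grafts and 5 rose and 1 fell in Sox2Hi grafts. In that fit 34% and 3.61% of genes were called in either direction. Clec4a1 and Clec4a3, neighbours of Clec4a2 in the DCIR family, had 32.7 ± 7.44 and 46.9 ± 16.1 CPM (SD, n = 3) in control naive and 96.7 ± 3.70 and 142 ± 3.64 CPM (n = 2) in control treated libraries. In Sox2Hi grafts they rose by 1.62 and 1.501 in log2 (edgeR adjusted p = 0.00367 and 0.00698). Klrk1, which encodes the activating receptor NKG2D of T and NK cells, rose by 2.08 and 2.22 in log2 in control and Sox2Hi grafts, beside the rise of the T and NK cell marker sum given above. Cd302 rose by 1.75 in control and 1.42 in Sox2Hi grafts.

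The genes of this list that fell most in control grafts were Cd209a, Mgl2 and Colec12. Cd209a, a receptor of dendritic cells, had 16.7 ± 6.67 CPM (SD, n = 3) in control naive and 0.936 ± 1.12 CPM (n = 2) in control treated libraries, a log2 fold change of -4.08 (edgeR adjusted p = 0.000884), and its log2 fold change in Sox2Hi grafts was -2.82 (edgeR adjusted p = 0.0143). Mgl2 fell by 1.99 in control grafts and stood at -1.12 in Sox2Hi grafts (edgeR adjusted p = 0.0979). Mrc1, Clec10a and Ly75, which dendritic cells or macrophages also express, stood at -0.43, 0.65 and 0.11 in control grafts, uncalled, and at 0.12, 1.195 and 0.64 under all-gene scaling, with the latter pair called. Colec12, a scavenger receptor of endothelial cells, had 27.5 ± 2.05 (naive) and 11.7 ± 0.157 CPM (treated) in control grafts and 17.5 ± 0.923 (naive) and 23.9 ± 1.93 CPM (treated) in Sox2Hi grafts. Its interaction was 1.68 (edgeR adjusted p = 0.000707; 0.86 under all-gene scaling), opposite in sign to that of the 7 myeloid receptor genes. Colec12 and Cd209a are within the range of levels where the background over silent genes, lowest in control treated libraries, bears most on the count; its part in these values was not tested.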
